A study of Homo sapiens with 24 samples.

Results

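The mitochondrial genome encodes 7 subunits of respiratory complex I, and their mRNAs (ND1, ND2, ND3, ND4, ND4L, ND5 and ND6) are described here in PANC-1 cells, an established human line that was derived from a tumour of pancreatic ductal origin. The members were taken by gene symbol from a table of 54583 genes, and all 7 had counts in every library, so all 7 were among the 12058 genes tested. Cells were treated for 6 h with the vehicle DMSO, with 40 µM CID661578, a compound that the study links to the kinase MNK2, or with 5 µM cercosporamide, an inhibitor of MNK2 kinase activity. Each treatment had 4 replicate plates, and each of the 12 plates gave a library of total cytosolic RNA and a library of polysome RNA, the pooled sucrose-gradient fractions in which an mRNA carried more than 3 ribosomes. All groups were the same line in the same medium, which the labels give as RPMI 1640 and the methods of the study as DMEM, and no group carried a genetic change. The question addressed is how much of each complex I mRNA was found in polysome RNA relative to total RNA, and whether either compound changed this.

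Complex I (NADH:ubiquinone oxidoreductase) is the entry point of electrons from NADH into the respiratory chain and pumps protons across the inner mitochondrial membrane. Its membrane arm is built around the mitochondrially encoded subunits, and its other subunits are encoded in the nucleus. ND1 forms part of the site at which ubiquinone binds, ND2, ND4 and ND5 are the antiporter-like subunits of the proton channels, and ND3, ND4L and ND6 are small subunits between ND1 and ND2. The mRNAs are transcribed, cut out of long precursors and translated by mitochondrial ribosomes inside the organelle, not by the cytosolic ribosomes on which the gradient fractions are based. Which particles held the mitochondrial mRNAs in the heavy fractions, and how many mitochondria the lysis opened, was not measured.

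On the human genome build hg38, the mitochondrial chromosome is 16569 bases long and carries 37 genes, of which 13 encode proteins. The coordinates of the 7 members are equal in RefSeq (GRCh38.p14) and in GENCODE v44, and each is a coding sequence without an intron. ND1 lies at chrM:3307-4262 (956 nt), ND2 at chrM:4470-5511 (1042 nt), ND3 at chrM:10059-10404 (346 nt), ND4L at chrM:10470-10766 (297 nt), ND4 at chrM:10760-12137 (1378 nt) and ND5 at chrM:12337-14148 (1812 nt), all on the forward strand. ND6, at chrM:14149-14673 (525 nt), is the 1 protein gene of the 13 on the reverse strand, so its reading frame runs towards ND5 and the last base of its stop codon lies next to the last base of ND5. Its mRNA is 35.6% G and 7.05% C, whereas the other members are 9.50 to 12.1% G and 29.5 to 36% C. The ends of the annotated coding sequences are shown to identify the members and because they differ in how the reading frame ends. The capitals mark the last, complete or incomplete, stop codon.
ND1: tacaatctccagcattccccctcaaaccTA
ND2: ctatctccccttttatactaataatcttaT
ND3: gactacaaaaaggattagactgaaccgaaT
ND4: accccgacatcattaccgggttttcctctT
ND4L: gtacataacctaaacctactccaatgcTAA
ND5: ctcatcctaaccctactcctaatcacaTAA
ND6: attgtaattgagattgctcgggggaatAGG
ND1, ND2, ND3 and ND4 end in T or TA, and as background such stop codons become complete when the mRNA is polyadenylated. ND4L and ND5 end in TAA, and ND6 ends in AGG, which is read as a stop in human mitochondria.

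ND4L and ND4 are read from the same bicistronic mRNA in different frames. The window chrM:10749-10778 on the forward strand is shown because the 7 bases in capitals (chrM:10760-10766) belong to both genes, and reads on both genes were left out of the counts of either.
ND4L and ND4: aacctactccaATGCTAAaactaatcgtcc
The ATG in the capitals opens ND4, and the TAA closes ND4L.

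Reads were counted without regard to strand, so reads from an ND5 transcript that runs on into the region opposite ND6 cannot be told apart from reads of ND6 itself. The libraries were primed on poly(A), and ND6 is known as the human mitochondrial mRNA without a stable poly(A) tail. Of the 24 libraries, 23 held 9268041 to 12184749 counts, and the polysome library of cercosporamide replicate 4 held 1592459. That library gave the lowest counts of the members, with 17 counts for ND3, 38 for ND4L, 54 for ND6 and 82 for ND1, and its values carry the most counting error. Of the markers checked for the line, the keratins KRT8, KRT18 and KRT19 had at least 680 CPM in every library, and so did the mesenchymal marker VIM (770 to 2180 CPM), whereas the duct and epithelial markers KRT7 (3.31 to 38.3 CPM), EPCAM (2.80 to 12.5 CPM) and SOX9 (10.3 to 50.6 CPM) were low. INS, PRSS1 and PTPRC, which mark beta cells, acinar cells and leukocytes, were at 0 in all 24 libraries. The endocrine marker GCG and the acinar marker CPA1 were at 0 in 22 and 21 libraries, the endothelial marker PECAM1 was at 0 in 10 and reached 0.644 CPM, and the fibroblast marker COL1A1 was at 0.651 to 6.45 CPM in all of them. CPM are counts scaled to a common library size after TMM normalization. No spike-in was listed, so every level is relative to the other genes of its library, and in bulk libraries fewer cells and less RNA per cell cannot be told apart.

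With DMSO, the 7 mRNAs together made up 1.37% ± 0.444 (SD, n = 4) of the counts in total RNA and 0.261% ± 0.0542 in polysome RNA. Polysome RNA held less of each of them than total RNA. With edgeR's quasi-likelihood test on the polysome-to-total difference within plates, all 7 were lower in polysome RNA (adjusted p of 0.000187 or below), at a threshold of adjusted p below 0.15 and more than 1.2-fold that 28.8% of tested genes passed in this direction. The median difference was -2.37 on the log2 scale over the 7 mRNAs, -1.53 over the 6 other mitochondrial mRNAs and -0.02 over all tested genes. Among the other mitochondrial mRNAs, 5 of 6 were lower, and COX1, a core subunit of cytochrome c oxidase, was at -0.05 (not called). The 37 nuclear complex I subunits, whose mRNAs are translated in the cytosol, had a median of -0.87, with 27 of 37 lower.

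Of the members with DMSO, ND4L and ND4, from the shared mRNA, were the least polysome-associated. The ratio of polysome CPM to total CPM for ND4L was 0.0828, 0.202, 0.0565 and 0.0794 in replicates 1 to 4, a difference of -3.43 ± 0.318 (log2, SE). For ND4 it was 0.122, 0.231, 0.0842 and 0.0967 (-3.03 ± 0.260). The neighbours ND5 and ND6 were the most polysome-associated. The ratio was 0.310, 0.792, 0.209 and 0.324 for ND5 (-1.49 ± 0.274) and 0.383, 0.758, 0.201 and 0.2895 for ND6 (-1.48 ± 0.291). ND1 was at 0.207, 0.365, 0.147 and 0.198, ND2 at 0.144, 0.276, 0.115 and 0.163, and ND3 at 0.195, 0.1795, 0.120 and 0.339. Every value was below 1. Replicate 3 was the lowest for all 7 mRNAs, and replicate 2 was the highest for 6 of 7, the exception being ND3 with replicate 4.

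Per kilobase of coding length, the level in total RNA with DMSO rose in the order ND6 (505 ± 154 CPM per kb, SD), ND5 (714 ± 294), ND1 (1512 ± 324), ND3 (2588 ± 399), ND2 (2893 ± 737), ND4 (3765 ± 1209) and ND4L (6796 ± 2628). ND6 overlapped with ND5, ND3 with ND2, ND2 with ND4 and ND4 with ND4L. ND5 (308 to 955) did not reach ND1 (1032 to 1747), and ND1 did not reach ND3 (2103 to 3073). ND4L was above ND4, with which it shares an mRNA, on 4 of 4 plates. In polysome RNA the span was narrower, from 179 ± 42.6 CPM per kb for ND6 and 238 ± 41.5 for ND5, through 324 ± 50.2 for ND1, 449.8 ± 84.3 for ND4, 472 ± 93.6 for ND2 and 521 ± 169 for ND3, to 595 ± 106 for ND4L. Poly(A) priming and strand-blind counting bear on ND6 here, and the levels were not corrected for them.

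**Figure D1:**
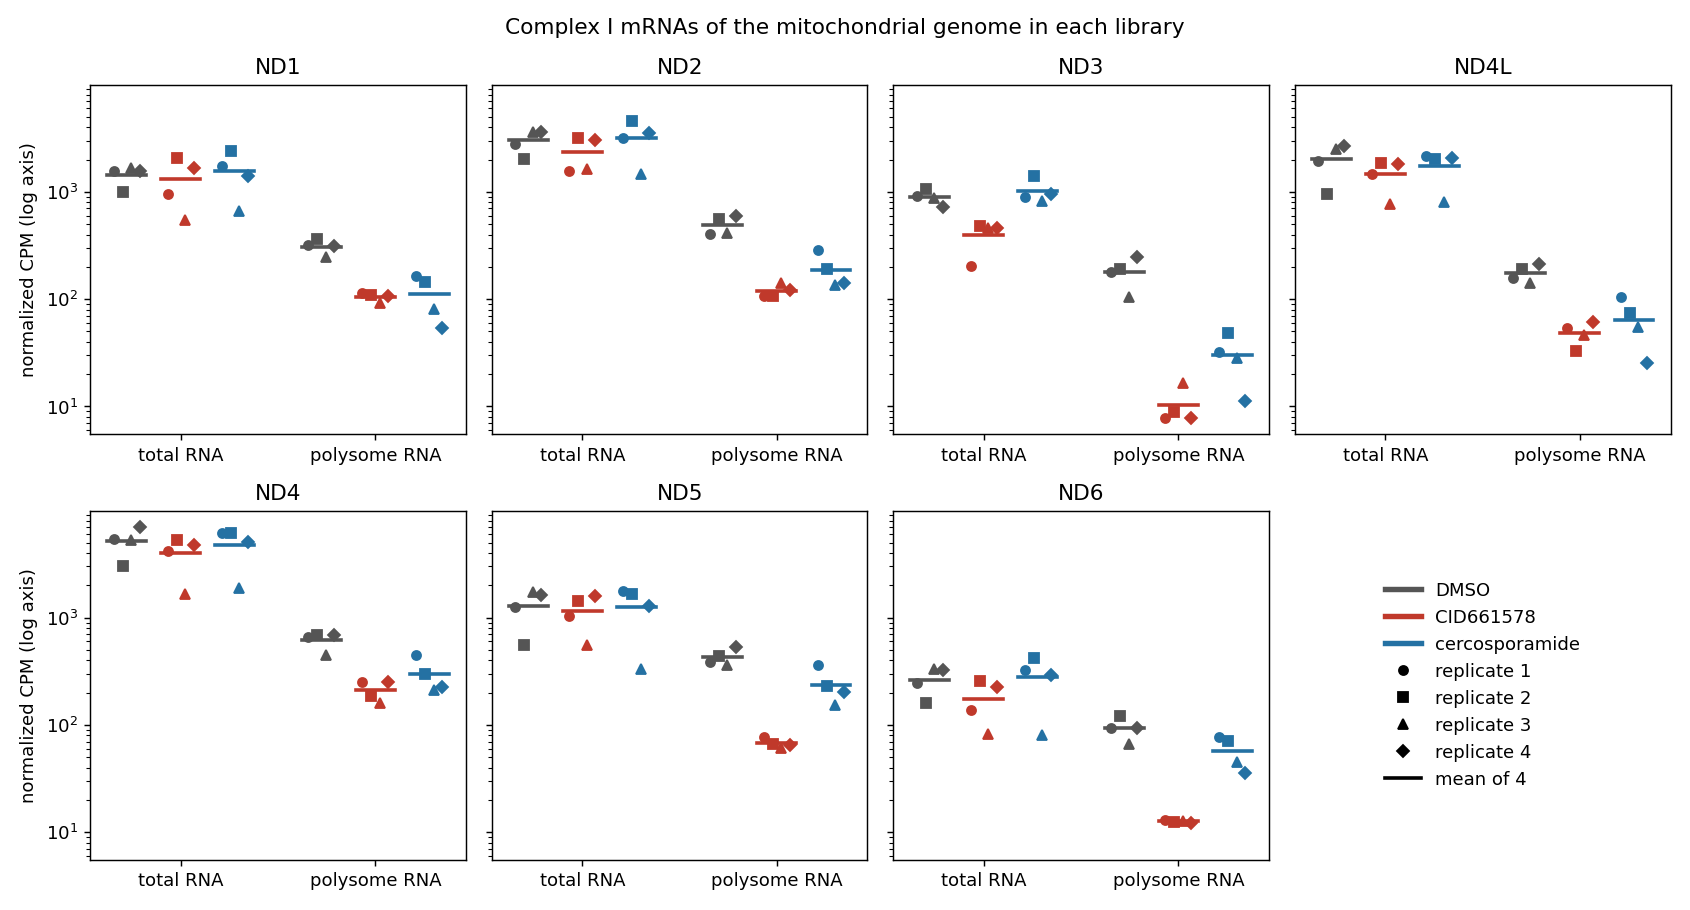
Normalized CPM (log axis) of each complex I mRNA in total RNA and polysome RNA, by treatment, with a marker for each replicate and a line at the mean of 4. With CID661578, all 4 polysome values of each mRNA lie below the 4 DMSO values, and those of ND6 are between 12.2 and 12.98 CPM against 66.6 to 121 CPM with DMSO.

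CID661578 lowered the polysome level of every member. In polysome RNA alone, edgeR's test (adjusted p below 0.15) called 7 of 7 lower, against 3.96% of tested genes, and the 4 treated libraries did not overlap the 4 DMSO libraries for any of the 7, against 2.92% of tested genes. The translational efficiency (TE) change, the change of polysome relative to total RNA on the same plates, was called lower for 4 of 7, namely ND2, ND3, ND5 and ND6, against 0.199% of tested genes. ND3 and ND5 had the lowest and second-lowest estimates of all 12058 genes. The median TE change was -1.62 (log2) over the 7 mRNAs, -2.36 over the 6 other mitochondrial mRNAs, all called, and 0.03 over all tested genes. In the ratio itself, the CID661578 and DMSO plates did not overlap for the same 4 members, against 1.68% of tested genes. Without replicate 2 the count fell to 2, ND3 and ND5, with ND2 at -1.16 and ND6 at -1.61 (log2). Without replicate 1 or replicate 3, ND1 and ND4L were called as well. Genes called lower numbered 24 of 12058 with all replicates and 12 of 12154 without replicate 2. They numbered 244 of 12153 without replicate 1 and 28 of 12167 without replicate 3.

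ND3, the small subunit whose loop reaches towards the ubiquinone site, moved most. Its polysome level was 178, 191, 105 and 247 CPM with DMSO and 7.80, 8.88, 16.5 and 7.87 CPM with CID661578. The highest treated library lay far below the lowest control library, and the change was -4.15 ± 0.349 (log2, SE, edgeR adjusted p = 1.12e-07). In total RNA, ND3 was at 916, 1063, 875 and 728 CPM with DMSO and at 205, 478, 459 and 456 CPM with CID661578. These groups did not overlap either, and ND3 was the 1 member of 7 called in total RNA (-1.21 ± 0.223, adjusted p = 0.02), against 0.133% of tested genes called lower and 1.29% without overlap. The call in total RNA depended on the replicate term, without which the estimate was -1.17 (adjusted p = 0.51, and over all alternatives 2.97e-07 to 0.51). Its ratio of 0.0381, 0.0186, 0.0360 and 0.01725 lay below all 4 DMSO plates, and its TE change was -2.90 ± 0.348 (adjusted p = 7.17e-05, and over all alternatives 1.66e-24 to 0.221).

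ND5, the antiporter-like subunit at the tip of the membrane arm, and ND6, encoded opposite its downstream region, fell together. As counting ignored strand, reads of ND5 transcripts that run on may be among those of ND6. The polysome level of ND5 was 388, 442, 361 and 532 CPM with DMSO and 77.3, 66.6, 60.8 and 65.7 CPM with CID661578 (-2.68 ± 0.204, adjusted p = 4.97e-08). The polysome level of ND6 was 93.2, 121, 66.6 and 94.3 CPM with DMSO and 12.98, 12.5, 12.7 and 12.2 CPM with CID661578 (-2.87 ± 0.213, adjusted p = 4.03e-08). The treated libraries lay close to each other and well below the control libraries for both. In total RNA, ND5 was at 1250, 558, 1730 and 1640.0 CPM with DMSO and at 1025, 1439, 554 and 1576 CPM with CID661578, an overlapping pair of groups that was not called (-0.33 ± 0.403, adjusted p = 0.945). For ND6 the total level was 243, 160.1, 331 and 326 CPM with DMSO and 138, 255, 81.9 and 225 CPM with CID661578, with an estimate of -0.81 ± 0.363 that was not called (adjusted p = 0.662). The ratio with CID661578 was 0.0754, 0.0463, 0.110 and 0.0417 for ND5 and 0.0939, 0.0491, 0.155 and 0.0545 for ND6. No CID661578 plate reached the lowest DMSO plate, and the TE change was -2.51 ± 0.380 for ND5 (adjusted p = 0.000896) and -2.20 ± 0.391 for ND6 (adjusted p = 0.00700).

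ND2, the antiporter-like subunit next to the small subunits, was the other member with a TE call. Its polysome level was 402, 558, 414 and 592 CPM with DMSO and 108, 107, 142 and 122 CPM with CID661578 (-2.03 ± 0.230, adjusted p = 1.12e-05). Its ratio with CID661578 was 0.0692, 0.0337, 0.0870 and 0.0403, below all 4 DMSO plates, and the TE change was -1.62 ± 0.336 (adjusted p = 0.0359). In total RNA, ND2 was at 2795, 2022, 3612 and 3631 CPM with DMSO and 1556, 3179, 1632 and 3014 CPM with CID661578, and these groups overlapped.

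ND1, ND4 and ND4L were lower in polysome RNA but were not called for TE. The polysome level of ND1 was 321, 361, 245 and 311 CPM with DMSO and 114, 109, 93.1 and 107 CPM with CID661578 (-1.54 ± 0.214, adjusted p = 0.000175). For ND4, the antiporter-like subunit between ND2 and ND5, it was 658, 692, 447 and 682 CPM with DMSO and 251, 185, 159 and 252 CPM with CID661578 (-1.56 ± 0.189, adjusted p = 2.77e-05). For ND4L it was 159, 193, 143 and 212 CPM with DMSO and 54.2, 32.8, 46.8 and 60.9 CPM with CID661578 (-1.87 ± 0.276, adjusted p = 0.00034). In polysome RNA, the treated libraries stayed below the control libraries for each of these 3 mRNAs. The ratios with CID661578 were 0.119, 0.0523, 0.169 and 0.0638 for ND1, 0.0599, 0.0349, 0.0952 and 0.0534 for ND4, and 0.0368, 0.0176, 0.0606 and 0.0337 for ND4L. On replicate 3 all 3 ratios were above the lowest DMSO value, which was also replicate 3, so the groups overlapped. The TE estimates were -1.26 ± 0.339 for ND1, -1.10 ± 0.342 for ND4 and -1.45 ± 0.408 for ND4L, with adjusted p of 0.331, 0.472 and 0.331.

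**Figure D2:**
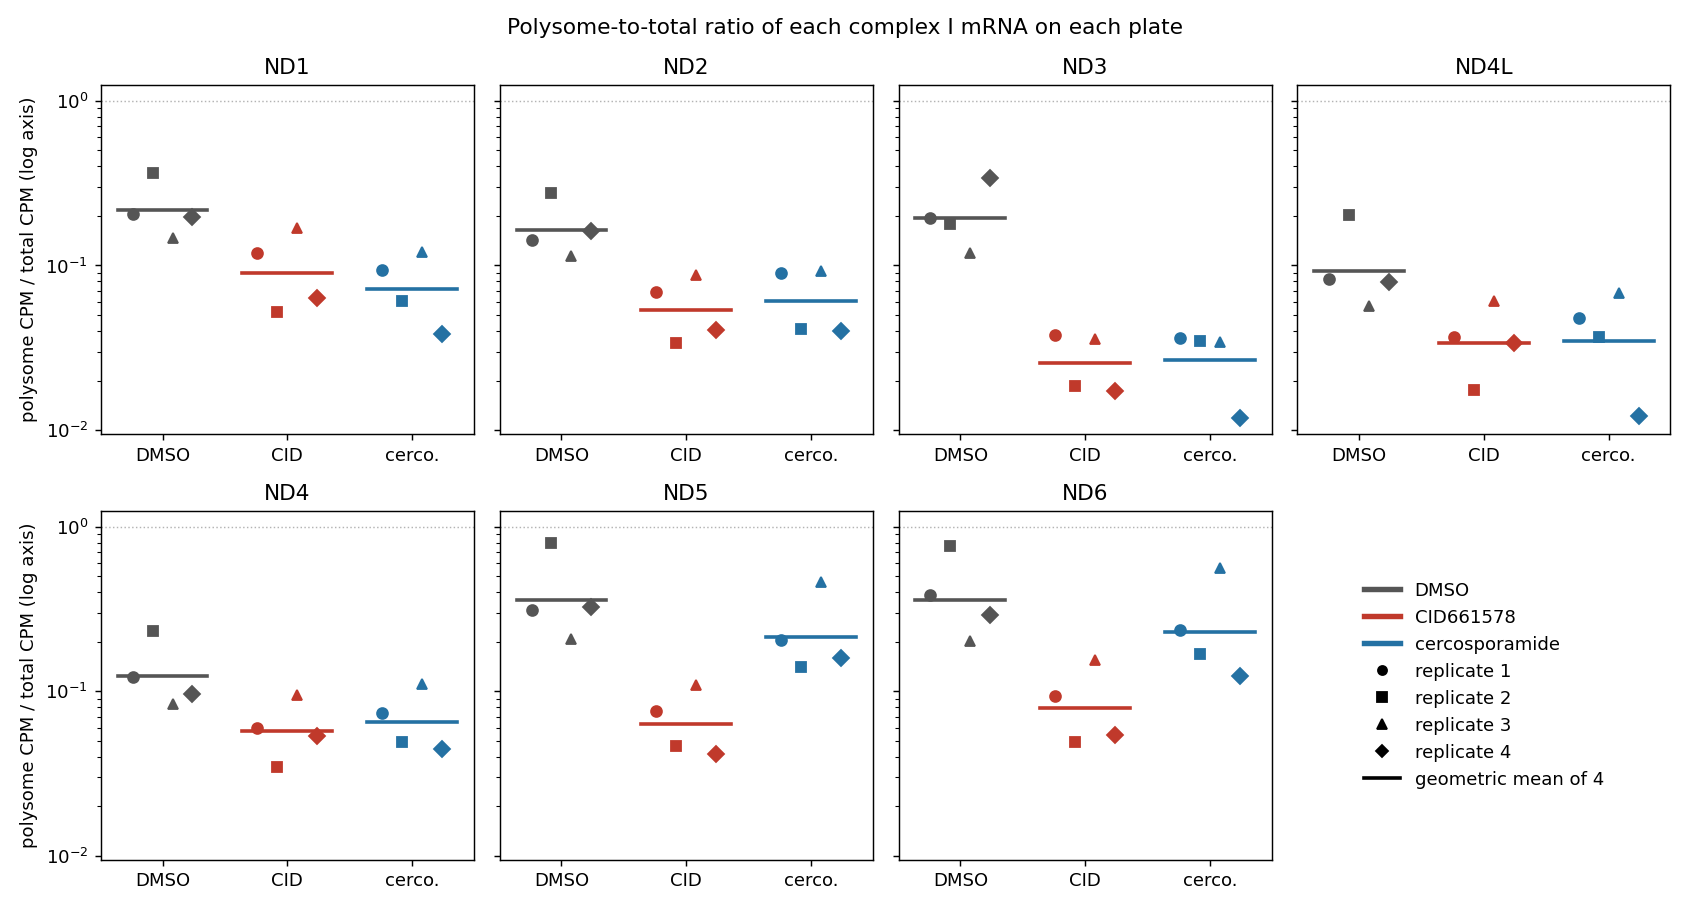
Ratio of polysome CPM to total CPM (log axis) for each complex I mRNA on each of the 12 plates, with a marker for each replicate and a line at the geometric mean of 4. The 4 CID661578 plates lie below all DMSO plates for ND2, ND3, ND5 and ND6, and the 4 cercosporamide plates do so for ND1, ND2 and ND3.

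Total RNA levels of the members differed between plates. With DMSO, replicate 2 had the lowest total level of every member but ND3, for example 3001 CPM of ND4 against 5311 to 7056 CPM in the other replicates. With CID661578, replicate 3 had the lowest total level of ND1, ND4, ND4L, ND5 and ND6 (1673 CPM of ND4 against 4193 to 5294 CPM), and with cercosporamide replicate 3 had the lowest total level of all 7 (1895 CPM of ND4 against 5085 to 6101 CPM). The high ratios of replicate 2 with DMSO and of replicate 3 with either compound were on these plates. What set these plates apart was not tested.

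Cercosporamide was compared with the same 4 DMSO plates, so the results of the 2 compounds are not independent of each other. Polysome RNA was again called lower for 7 of 7 members, against 13.8% of tested genes. Total RNA was called for 0 of 7 (estimates -0.29 to 0.15 on the log2 scale, lowest unadjusted p = 0.375), against 0.0912% of tested genes called lower, and DESeq2 also called 0. None of the members lay below all DMSO libraries in total RNA, against 2.07% of tested genes. TE was called lower for 5 of 7, namely ND1, ND2, ND3, ND4 and ND4L, against 12.6% of tested genes. Without replicate 2, or without the plate of the shallow library, the count was 3, namely ND1, ND2 and ND3, and without replicate 3 it was 7. Genes called lower in these fits numbered 771 of 12154, 1428 of 13240 and 1682 of 12167, in that order. The median TE change was -1.35 over the 7 mRNAs, -1.52 over the 6 other mitochondrial mRNAs, all called, and -0.000503 over all tested genes.

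ND3 again had the lowest TE estimate of all 12058 genes. Its polysome level with cercosporamide was 32.1, 48.9, 28.2 and 11.3 CPM, below every DMSO library (-2.57 ± 0.326, adjusted p = 1.85e-05). Its total level of 887, 1400, 826 and 950.1 CPM overlapped that of DMSO (0.15 ± 0.218, adjusted p = 0.843). The ratio was 0.0362, 0.0349, 0.0341 and 0.01185, so 3 plates lay close together and replicate 4, with 17 polysome counts, lay lower. The TE change was -2.74 ± 0.347 (adjusted p = 4.03e-05).

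ND1 and ND2 also fell. The polysome level with cercosporamide was 165, 146, 80.7 and 54.3 CPM for ND1 and 284, 190.3, 136 and 142 CPM for ND2, in each case below every DMSO library. The ratio was 0.0940, 0.0612, 0.121 and 0.0383 for ND1 (TE change -1.58 ± 0.342, adjusted p = 0.00298). For ND2 it was 0.0897, 0.0412, 0.0924 and 0.0398 (-1.44 ± 0.337, adjusted p = 0.00558). For both, no cercosporamide plate overlapped the DMSO plates in the ratio, as for 3 of 7 members and 8% of tested genes.

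The shared mRNA of ND4L and ND4 fell as well, with plates that overlapped DMSO. The polysome level was 450, 300, 210.1 and 226 CPM for ND4 and 104, 73.9, 54.6 and 25.2 CPM for ND4L. ND4L lay below every DMSO library and ND4 did not, since its replicate 1 was above DMSO replicate 3 (447 CPM). The ratio was 0.0739, 0.0491, 0.111 and 0.0444 for ND4 and 0.0482, 0.0369, 0.0681 and 0.0121 for ND4L. The TE change was -0.92 ± 0.342 for ND4 (adjusted p = 0.0682) and -1.35 ± 0.412 for ND4L (adjusted p = 0.0265).

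ND5 and ND6 were the members without a TE call. The polysome level with cercosporamide was 359, 231, 154 and 205 CPM for ND5 (-0.91 ± 0.195, adjusted p = 0.00264) and 77.3, 70.5, 44.9 and 35.8 CPM for ND6 (-0.72 ± 0.199, adjusted p = 0.0157). ND5 was below every DMSO library, as were 5 of 7 members (ND1, ND2, ND3, ND4L and ND5) against 5.73% of tested genes, and ND6 overlapped DMSO. The ratio was 0.204, 0.140, 0.460 and 0.159 for ND5 and 0.235, 0.169, 0.558 and 0.123 for ND6, and replicate 3 exceeded 3 of the 4 DMSO plates for both. The TE estimates were -0.75 ± 0.376 (adjusted p = 0.181) and -0.66 ± 0.387 (adjusted p = 0.259).

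Total RNA levels of the members other than ND3 overlapped between all treatments. ND1 was at 1551, 987, 1671 and 1571 CPM with DMSO, 959, 2076, 551 and 1684 CPM with CID661578, and 1760.0, 2380.0, 668 and 1416 CPM with cercosporamide. ND4 was at 5385, 3001, 5311 and 7056 CPM with DMSO, 4193, 5294, 1673 and 4723 CPM with CID661578, and 6090.0, 6101, 1895 and 5085 CPM with cercosporamide. ND4L was at 1919, 955, 2531 and 2669 CPM with DMSO, 1472, 1867, 771 and 1807 CPM with CID661578, and 2154, 2004, 802 and 2075 CPM with cercosporamide. In each of these genes, 3 cercosporamide plates lay above the lowest DMSO plate and replicate 3 lay below all DMSO plates. The same held for ND2 (3168, 4616, 1468 and 3559 CPM with cercosporamide), ND5 (1757, 1650.0, 335 and 1287 CPM) and ND6 (328, 418, 80.3 and 291 CPM).

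**Figure D3:**
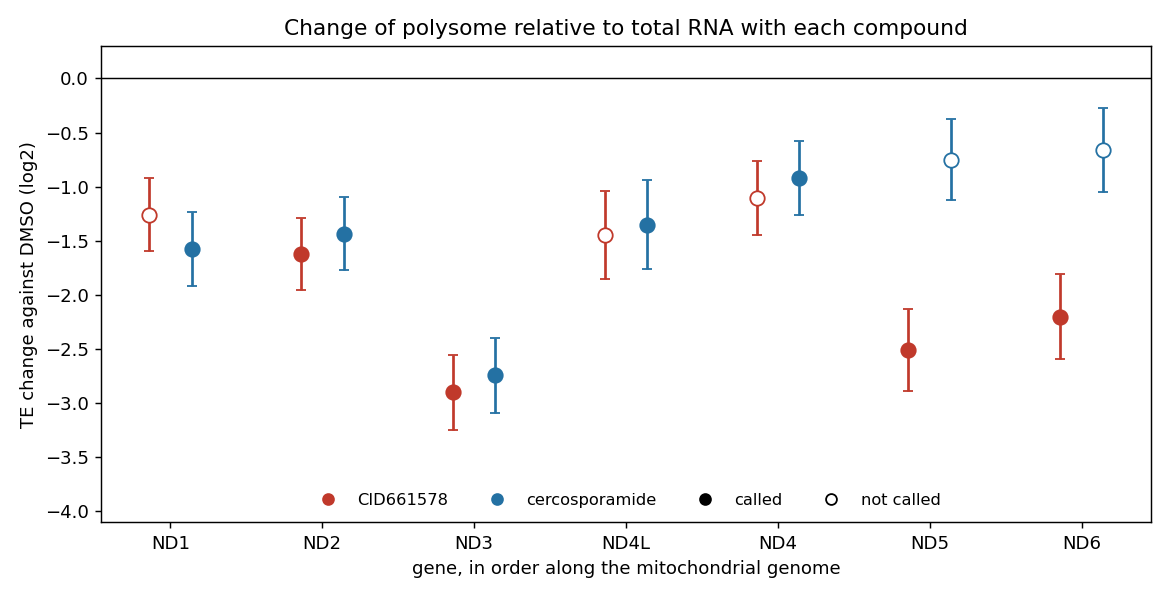
TE change against DMSO (log2, points) with its standard error (bars) for each complex I mRNA in order along the mitochondrial genome, filled where the change was called. ND3 is lowest with both compounds (-2.90 and -2.74), and ND5 and ND6 lie at -2.51 and -2.20 with CID661578 and at -0.75 and -0.66 with cercosporamide.

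Among the members, ND5 and ND6 differed between the compounds. When CID661578 was tested against cercosporamide in the same model, ND5 (-1.76 ± 0.374, adjusted p = 0.00992) and ND6 (-1.54 ± 0.390, adjusted p = 0.0223) were called lower with CID661578. These were 2 of 7 members, against 7.57% of tested genes, and their counts may not be independent, since counting ignored strand. Of the 6 other mitochondrial mRNAs, 3 were called lower as well, namely CYTB (-1.62 ± 0.335), COX1 (-0.92 ± 0.320) and ATP6 (-0.87 ± 0.303), and the median of the 6 was -0.75 against -0.19 over the 7 members. In polysome RNA alone, no CID661578 library exceeded 77.3 CPM of ND5 or 12.98 CPM of ND6. No cercosporamide library fell below 154 and 35.8 CPM. In the ratio of polysome to total RNA, the ND5 plates did not overlap, with at most 0.110 with CID661578 and at least 0.140 with cercosporamide. The ND6 plates overlapped, with CID661578 replicate 3 at 0.155 and cercosporamide replicate 4 at 0.123. The share of tested genes without overlap between the compounds was not computed. The other 5 members were not called, with estimates of 0.32 ± 0.338 for ND1, -0.19 ± 0.333 for ND2, -0.16 ± 0.350 for ND3, -0.19 ± 0.339 for ND4 and -0.10 ± 0.410 for ND4L. The doses differed, at 40 and 5 µM. Both calls were lost when the plate and replicate terms were left out, a fit in which 4 of 12058 tested genes were called lower.

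The polysome make-up of the complex I mRNAs also differed between treatments, a measure within each library that does not depend on its scaling. ND5 made up 18.8% ± 1.54 (SD, n = 4) of the polysome counts of the 7 mRNAs with DMSO, 11.8% ± 1.04 with CID661578 and 24.3% ± 3.54 with cercosporamide. These ranges of 17.3 to 20.3%, 10.5 to 12.8% and 21.8 to 29.3% did not overlap. ND6 made up 4.06% ± 0.543, 2.20% ± 0.225 and 5.84% ± 0.767, also without overlap. ND3 made up 7.67% ± 1.41 with DMSO, 1.83% ± 0.881 with CID661578 and 3.10% ± 1.43 with cercosporamide, and here the ranges of the compounds (1.25 to 3.11% and 1.61 to 4.61%) overlapped each other but not DMSO (5.88 to 9.24%). ND1 was at 13.5% ± 1.29 with DMSO and 18.4% ± 1.68 with CID661578, and ND4 was at 26.9% ± 2.18 with DMSO and 36.4% ± 4.84 with CID661578, with ranges that did not overlap for either gene. No test was run on these shares, which are bound to each other because they add up to the whole.

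**Figure D4:**
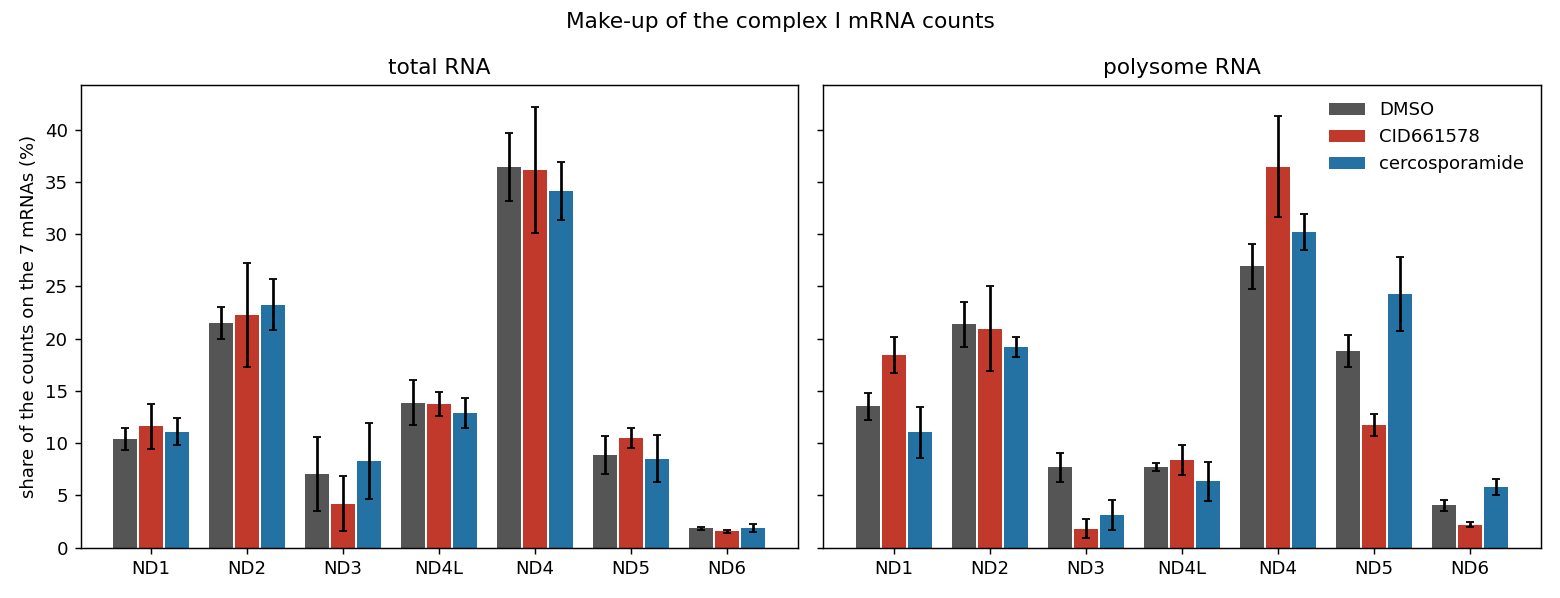
Mean share (bars, %) of the counts on the 7 complex I mRNAs that fell on each of them in total RNA and in polysome RNA, with the SD over 4 libraries. In total RNA, ND5 is at 8.84%, 10.5% and 8.52% with DMSO, CID661578 and cercosporamide, and in polysome RNA it is at 18.8%, 11.8% and 24.3%.

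The 7 mRNAs were then set against the 6 other mitochondrial mRNAs of the same plate, by subtracting the median log2 ratio of those 6. This difference is also free of library scaling, and the treatments were compared with a two-sided exact permutation test over plates, whose smallest p with 4 against 4 is 0.0286, adjusted over 14 comparisons. This test ignores the replicate number. When plates were paired by it, the smallest possible exact p was 0.125 and the lowest adjusted p was 0.25, so no shift passed the threshold of 0.15 in the paired test. The shifts of ND1, ND2 and ND4 with CID661578 and of ND3 with cercosporamide were among those at this smallest p. They had the same direction in 4 of 4 pairs. With CID661578, ND1, ND2 and ND4 lay higher against those mRNAs than with DMSO, and the lowest adjusted p of any comparison without pairing was 0.1. For ND4 the difference was -1.28, -1.001, -1.65 and -1.59 with DMSO and -0.68, -0.48, -0.09 and -0.10 with CID661578, a mean shift of 1.04 (exact p = 0.0286). For ND1 the shift was 0.89, and for ND2 it was 0.52, both with the same exact p and higher in 4 of 4 plates than in any DMSO plate. The shift of ND4L was 0.69 (exact p = 0.0857, adjusted p = 0.171). ND5 and ND6 had shifts of -0.36 (exact p = 0.2) and -0.04 (exact p = 0.857), and ND3 had one of -0.76 (exact p = 0.0571, adjusted p = 0.16).

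With cercosporamide, ND3 stood below the other mitochondrial mRNAs. The difference for ND3 was -0.61, -1.36, -1.15 and 0.22 with DMSO and -1.92, -1.41, -2.05 and -3.25 with cercosporamide, a mean shift of -1.43 (exact p = 0.0286, adjusted p = 0.1). The gap between the groups was small, as replicate 2 was at -1.36 with DMSO and at -1.41 with cercosporamide. ND5 (0.68, exact p = 0.114) and ND6 (0.77, exact p = 0.143) were higher on average in groups that overlapped. The shifts of ND1 (-0.17), ND2 (-0.02), ND4 (0.51) and ND4L (0.01) had exact p of 0.0857 or above.

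**Figure D5:**
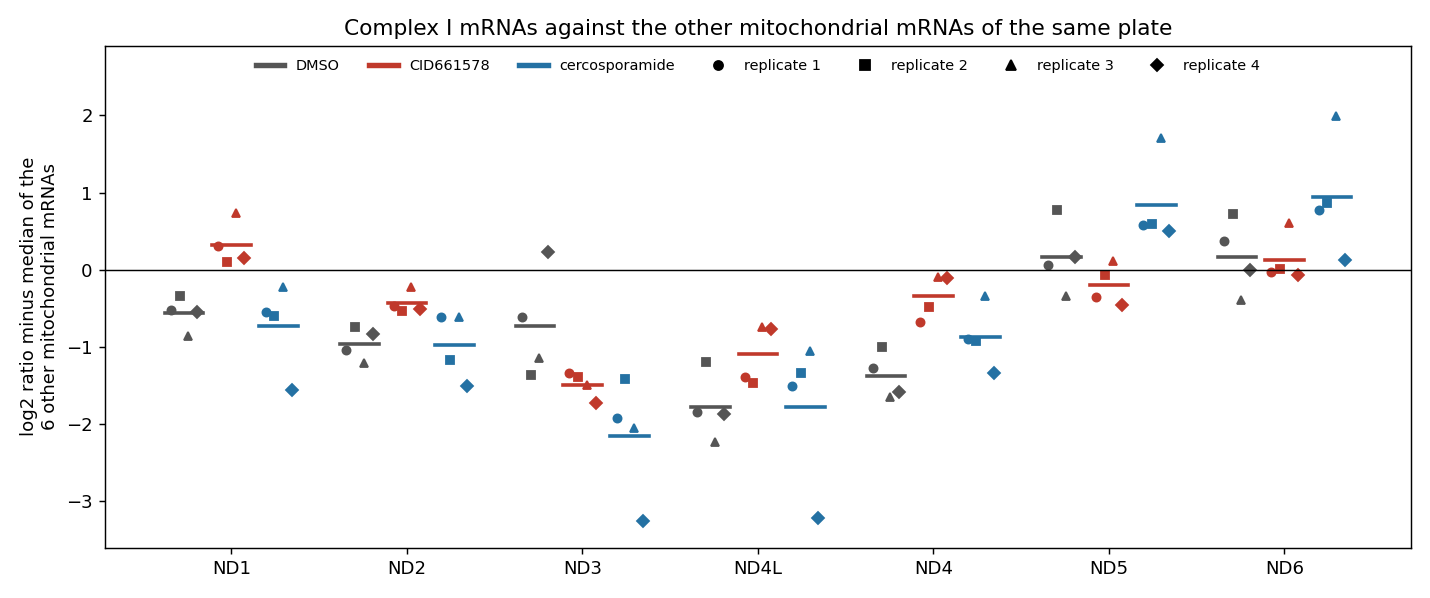
Log2 polysome-to-total ratio of each complex I mRNA minus the median of the 6 other mitochondrial mRNAs on the same plate, with a marker for each replicate and a line at the mean of 4. With CID661578, ND1, ND2 and ND4 lie above all DMSO plates, and with cercosporamide ND3 lies below them.

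Mitochondrial rRNA, the RNA core of the ribosomes that translate these mRNAs, was measured beside them. The authors removed rRNA reads before counting, so the remaining counts may be partial. The 2 mitochondrial rRNAs made up 2.92% ± 1.02 (SD, n = 4) of polysome counts with DMSO, 3.06% ± 0.577 with CID661578 and 0.762% ± 0.371 with cercosporamide. For the large-subunit rRNA RNR2, the TE estimate was -0.07 with CID661578 and was not called. For the small-subunit rRNA RNR1 it was -1.37, which edgeR did not call (adjusted p = 0.308) and DESeq2 did. With cercosporamide both RNR1 (-2.15 ± 0.362, adjusted p = 0.000462) and RNR2 (-2.09 ± 0.362, adjusted p = 0.000597) were called lower. Whether the rRNA level bears on that of the complex I mRNAs was not tested.

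The nuclear genes for the rest of complex I had no TE call after CID661578 treatment. Of 37 nuclear subunits, 19 assembly factors and 25 genes of mitochondrial transcription and RNA handling, edgeR called 0 and DESeq2 called 0 in either direction, with medians of 0.08, 0.10 and 0.10 (log2) against 0.03 over all tested genes. Since 0.199% of tested genes were called lower, counts of 0 in lists of this size are near the background. At an unadjusted p below 0.05, edgeR had 1 nuclear subunit lower, 1 assembly factor higher, and 1 RNA-handling gene lower and 4 higher. With cercosporamide, 15 of 37 nuclear subunits were called lower and 1 higher, with a median of -0.47, against 12.6% and 15.8% of tested genes. The accessory subunit NDUFB1 had the lowest TE change (-1.40 ± 0.246, adjusted p = 0.000649), and the iron-sulfur subunit NDUFS1 was called higher (0.91 ± 0.248, adjusted p = 0.0144). In polysome RNA alone, the median of the 37 was -0.11, with 7 called lower and 4 higher, against 13.8% and 18.3% of tested genes. In total RNA their median was 0.32. There edgeR called 0, and DESeq2 called 6 higher, against 268 of 12058 tested genes. The TE change of this list thus holds changes of both fractions. Of the assembly factors, 3 of 19 (15.8%) were called lower and 1 (5.26%) higher. The first is near the 12.6% of tested genes, and the second is below the 15.8%. Among them were COA1 (-0.82 ± 0.234, adjusted p = 0.019) and NDUFAF1 (1.08 ± 0.316, adjusted p = 0.0211). In polysome RNA, edgeR called NDUFAF1 (0.77, adjusted p = 0.0204) and not COA1 (-0.28, adjusted p = 0.325). Genes of mitochondrial transcription and RNA handling went the other way, with 12 of 25 higher, 2 lower and a median of 0.62. LRPPRC, which stabilizes mitochondrial mRNAs, had a higher TE (1.43 ± 0.236, adjusted p = 0.000367), whereas its partner SLIRP had a lower one (-0.87 ± 0.270, adjusted p = 0.0294). In polysome RNA, edgeR called LRPPRC higher (1.07, adjusted p = 0.000178) and did not call SLIRP (-0.26, adjusted p = 0.421). In total RNA, neither LRPPRC (-0.36) nor SLIRP (0.62) was called. When the compounds were tested against each other, 14 of 37 nuclear subunits were higher with CID661578, against 7.93% of tested genes.

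Within each treatment, all members stayed lower in polysome RNA than in total RNA with CID661578 (7 of 7 called, against 26.6% of tested genes, median -4.13) and with cercosporamide (7 of 7, against 31.2%, median -3.94). Per kilobase, the order of polysome levels differed between treatments. With CID661578 it ran from ND6 (24.0 ± 0.584 CPM per kb) and ND3 (29.7 ± 12.1) through ND5 (37.3 ± 3.85) to ND1 (111 ± 9.37), ND2 (115 ± 15.7), ND4 (154 ± 34.2) and ND4L (164 ± 40.6). Here ND3 (22.6 to 47.8) overlapped with both ND6 (23.3 to 24.7) and ND5 (33.5 to 42.7). ND1 overlapped with ND2, ND2 with ND4 and ND4 with ND4L. ND3, near the top with DMSO, was thus among the lowest 3. With cercosporamide ND3 (87.0 ± 44.6) was lowest on average, with every neighbour in the order overlapping. As a share of the counts on all 13 mitochondrial mRNAs, the 7 members were at 17.2% ± 1.45 in polysome RNA with DMSO, 25.6% ± 1.196 with CID661578 and 16.3% ± 2.29 with cercosporamide.

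Copies of the members in the nuclear genome share reads with them, since a read with several alignments was counted at each. The table lists 247 such copies by symbol, and 3 were among the tested genes. MTND1P23 had 9.44 to 22.6% as many counts as ND1, and MTND2P28 had 23.8 to 45.1% as many as ND2, so the counts of ND1 and ND2 are uncertain to that extent. Their TE changes of -1.52 ± 0.295 and -1.63 ± 0.325 with CID661578 were both called (adjusted p = 0.0205 and 0.0244), whereas ND1 itself was not (-1.26 ± 0.339). MTND1P23 and ND1 were not tested against each other. The 1 tested copy of ND6 had the lowest estimate of the 3 (-1.99) and was not called. Copies of ND6 had 1.21 to 31.5% as many counts as ND6. All copies of ND3 were at 0 counts, and those of ND4, ND4L and ND5 stayed below 1% of the member in every library.

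Across the 24 libraries, the mean log2 CPM of the members followed most closely ATP6 (r = 0.995), its nuclear copy MTATP6P1 (0.994), ATP8 (0.989), MTND2P28 (0.986) and MTND1P23 (0.981). Outside the mitochondrial genome and its copies, USB1 (0.924), SNAR-B2 (0.914), FTH1P5 (0.913), TRIM66 (0.913) and FTH1P12 (0.909) were nearest, but within the 12 polysome libraries their r was between 0.364 and 0.627. Within the 12 total libraries, USB1 had r = 0.83 and the others had r between 0.157 and 0.364. These correlations are descriptions over libraries that share the split into fractions. Within polysome libraries, ND5 and ND6 had r = 0.975 with each other, in counts that ignored strand. Within total libraries, ND3 had r between 0.073 and 0.519 with the other members, which had r of 0.842 to 0.962 among themselves.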

How the data were processed

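PANC-1 cells were profiled with 3 treatments, 4 replicates and 2 fractions. The counts deposited by the authors are raw reads per gene: rRNA reads were removed, the remaining reads were aligned to hg38 with HISAT2 and counted on RefSeq genes with featureCounts at default settings, from poly(A)-primed Smart-seq2 libraries. Depth per library (9268041 to 12184749 counts, and 1592459 in the shallow library) limits the precision of low counts.

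Libraries were grouped by their descriptions. Genes with a 0 in any library were removed, counts were TMM-normalized and tested with edgeR 4.0.16 in R 4.3.3 over 12058 genes with Benjamini-Hochberg adjustment. The TE model held terms for the 12 plates, for each replicate in each fraction and for polysome by compound (threshold of adjusted p 0.15 and 1.2-fold). Fractions were also tested alone with a replicate term (adjusted p 0.15), and polysome against total RNA with plate terms. The replicate number was used as a block because the study's methods name it as batch. Deviations of same-numbered treated and DMSO libraries from their group means correlated across genes with r above 0.1 in 13 of 16 comparisons (-0.0186 to 0.584). Replicates are described as biological. The p-values of edgeR combine each gene's spread between these plates with a spread shared over all tested genes. In the TE fit these carried 6 and 18.25 degrees of freedom. Each SE of an edgeR estimate is the absolute estimate divided by the square root of its F statistic. Scripts were tested on simulated data.

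Members and gene lists were chosen with earlier results of these data known, and the comparison with the 6 other mitochondrial mRNAs was added after the data were seen. All members are named. From each list, genes named are among the 2 lowest and 2 highest called TE changes per compound, and copies and most similar genes follow a count or correlation rank. Sequences and coordinates came from hg38, GENCODE v44 and RefSeq. As alternatives, DESeq2 1.42.0 replaced edgeR or gave it size factors, and TMM was computed per fraction or leaving out mitochondrial genes. Others were further filters, an adjusted p of 0.05, other model terms, fewer treatments in the fit, an analysis of partial variance in limma 3.58.1, and the removal of each replicate in turn.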

Additional observations from a re-analysis of the deposited data

Results flagged for a closer look

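Of 63 groups of 4 values checked (log2 CPM per fraction and treatment, and log2 polysome-to-total ratio per treatment, for each member), 6 held a value whose gap to its nearest neighbour exceeded Dixon's critical share of the range, where about 1 in 20 groups, or 3.15, would do so by chance. In total RNA with DMSO, replicate 2 had a log2 CPM of 9.95 for ND1, against 10.6 to 10.7 in the others. In total RNA with CID661578, replicate 1 was at 7.68 for ND3, against 8.83 to 8.90. In polysome RNA with DMSO, replicate 3 was at 8.80 for ND4, against 9.36 to 9.44. In total RNA with cercosporamide, replicate 3 was at 10.89 for ND4, against 12.3 to 12.6, and at 9.65 for ND4L, against 10.97 to 11.1. The log2 polysome-to-total ratio of ND3 with cercosporamide was -6.40 on replicate 4, the plate of the shallow library, against -4.87 to -4.79.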

How the results depend on the processing

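Polysome RNA with either compound, and polysome against total RNA with DMSO, kept 7 of 7 members called under every alternative run, the replicate block included (7). Over these alternatives, with 12058 to 28470 genes tested, genes called lower in polysome RNA numbered 36 to 796 with CID661578. They numbered 677 to 2260 with cercosporamide, and 2401 to 4112 for polysome against total RNA with DMSO. For TE with CID661578, 4 members were called with the replicate block and 4 without it, 2 without plate and replicate terms, 7 with no filter on low counts, and 2 to 6 with 1 replicate left out. Of all tested genes, 24, 21 and 9 of 12058 were called lower in the first of these fits, and 90 of 28470 with no filter. With 1 replicate left out it was 12 of 12154 to 244 of 12153. For TE with cercosporamide, the count was 5 with and without the replicate block, 3 without plate and replicate terms, 3 without cercosporamide replicate 4, and 3 to 7 with 1 replicate left out. Genes called lower numbered 1515 of 12058 with the block, 1318 without it and 336 without plate and replicate terms. They numbered 1428 of 13240 without cercosporamide replicate 4, and 771 of 12154 to 1682 of 12167 with 1 replicate left out. Between the compounds, the count of members was 2 with and without the block and 0 without plate and replicate terms. Genes called lower in these fits numbered 913, 675 and 4 of 12058. In total RNA with CID661578, the count of members was 1, but 0 without the replicate block and 3 with no filter. There, genes called lower numbered 16 of 12058, 2 of 12058 and 69 of 28470. An analysis of partial variance called 5 members with CID661578, ND3 not among them, and 7 with cercosporamide. It called 26 and 1393 of 12058 tested genes lower. In the comparison with the other mitochondrial mRNAs, pairing by replicate (an alternative chosen after seeing the data) raised the adjusted p of ND1, ND2 and ND4 with CID661578 and of ND3 with cercosporamide from 0.1 to 0.25. These shifts had the same direction in 4 of 4 pairs. Each was at the smallest exact p of either test, 0.0286 without and 0.125 with pairing, so this rise does not measure a weaker shift. The cause of the other moves was not tested.

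Of the estimates for single members, those that changed sign were all uncalled. Between the compounds, leaving out 1 replicate or the shallow plate gave -0.51 to 0.12 (log2) for ND3 and -0.52 to 0.22 for ND4L, which was 0.0178 with DESeq2. In total RNA with CID661578, leaving out 1 replicate gave -0.75 to 0.14 for ND1 and -0.76 to 0.29 for ND5. In total RNA with cercosporamide, it gave -0.46 to 0.38 for ND1, -0.37 to 0.40 for ND2, -0.62 to 0.19 for ND4, -0.65 to 0.22 for ND4L, -0.74 to 0.51 for ND5 and -0.59 to 0.50 for ND6, positive without replicate 3. There, without the replicate block, ND1 was at 0.11, ND2 at 0.0873 and ND6 at 0.0766, and with DMSO and cercosporamide alone ND2 was at 0.0181. TMM within each fraction moved the median of all genes to 0.26 for polysome against total RNA with DMSO, and no filter moved that of the TE change with cercosporamide to -0.14. Depth limits ND3, ND4L and ND6 in the shallow library.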
